A study of Mus musculus with 18 samples.

Results

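Nuclear-encoded oxidative phosphorylation genes were followed from normal nerve through plexiform neurofibroma to malignant peripheral nerve sheath tumour (MPNST) in mice. Members were all gene symbols beginning with Nduf followed by a, b, c, s or v, with Uqcr, with Cox followed by 4 to 8, or with Atp5, together with Sdha, Sdhb, Sdhc and Sdhd. Of 113 matching symbols, 14 ending in -ps were set aside as pseudogenes, which left 99 members among the 51290 genes measured. By role they comprised 7 core subunits, 34 accessory subunits and 8 assembly factors of complex I, the 4 subunits of complex II and 8 subunits of complex III. The rest were 13 ubiquitous and 8 tissue-restricted subunits of complex IV, and 5 F1 genes and 12 stalk or Fo genes of ATP synthase. In each comparison 91 members passed the filter on low counts. The other 8 were Cox6a2, Cox6c2, Cox7b2, Cox8b, Cox8c, Ndufa11b, Ndufb11b and Ndufs6b.

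Oxidative phosphorylation takes place in the inner mitochondrial membrane. Complexes I and II pass electrons from NADH and succinate through complex III to complex IV, which reduces oxygen, and ATP synthase uses the resulting proton gradient to make ATP. Most subunits are encoded in the nucleus and imported, while a small core is encoded by mitochondrial DNA, and neurons and striated muscle are tissues known for a high content of both. Several complex IV subunits exist as a ubiquitous form and a form restricted to muscle, lung, testis or cells low in oxygen.

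Each group held 6 libraries of poly(A) RNA. Normal nerve was trigeminal nerve of Nf1 flox/flox mice negative for PostnCre, and plexiform neurofibroma, a benign nerve tumour, was trigeminal nerve of Nf1 flox/flox mice positive for it. MPNST came from mice that carried PostnCre with both Nf1 and Arf floxed. Floxed Nf1 was thus shared by all 3 groups. The Cre is driven by the promoter of Postn, so recombination needs use of that promoter at some time in a cell's lineage. The Nf1 product, neurofibromin, restrains RAS signalling, while Arf, from the Cdkn2a locus, acts upstream of p53. The labels give no body site for MPNST and place the nerve and neurofibroma libraries in an earlier series, so malignancy, Arf deletion, tissue sampled and series of origin cannot be told apart in either comparison with MPNST. Nothing in the labels says whether the libraries of a group came from separate animals, except that the series' design counts 6 MPNST mice, so p-values measure the spread between these libraries.

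Totals ran from 13885900 to 23652617 estimated counts per library. Whole-gene counts of Nf1, which do not isolate a deleted exon, were 28.1 to 123 CPM in MPNST (CPM is a count scaled to its library's total), against 66.6 to 91.2 CPM in neurofibroma and 82.4 to 161 in nerve. Cdkn2a counts cover Ink4a as well as Arf and so check nothing about Arf. They were 692 CPM in MPNST 4 and 11.3 CPM or less in every other library. Neuron markers (15 of 15 above 0 in every MPNST library) summed to 23.9 to 6988 CPM there, against 14140 to 18380 in neurofibroma and 12910 to 21690 in nerve. Schwann cell markers (11 of 11 above 0) summed to 104 to 2024 CPM in MPNST, against 14310 to 24370 in neurofibroma and 5604 to 16150 in nerve.

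MPNST 2, 3 and 6 stood apart from the other MPNST libraries by salivary gland, skeletal muscle, or sympathoadrenal, pancreatic acinar and neuron markers. In MPNST 2, salivary gland markers summed to 358100 CPM against at most 294 in any other library. In MPNST 3, skeletal muscle markers summed to 59440 CPM, with 14 of 15 markers above 0 and Myh7 at 0. In MPNST 6, sympathoadrenal markers summed to 4994 CPM, pancreatic acinar markers to 4393 and neuron markers to 6988. Smaller muscle sums were found in neurofibroma 1 (2189 CPM) and nerve 3 (543 CPM), against at most 85.5 in the remaining libraries. The counts of members and gene lists called in MPNST are therefore given for 6 libraries and again for MPNST 1, 4 and 5. Those were picked by these marker lists and not by the members' levels, although the levels were known by then. MPNST 1, 4 and 5 were not free of other markers. Adipocyte markers (9, 7 and 9 of 9 above 0) summed to 1435, 148 and 811 CPM in them. The sums were 20.6 to 32.6 in nerve and 18.6 to 746 in neurofibroma. B and plasma cell markers summed to 1044 CPM in MPNST 1, against at most 90.1 in nerve and 125 in neurofibroma.

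The summed level of the 99 members was similar in nerve and neurofibroma and ran over a wide range in MPNST. Nerve libraries held 8756 to 11229 CPM (9719 ± 844, SD, n = 6) and neurofibroma libraries 9096 to 10991 (10121 ± 694, SD, n = 6), while those of MPNST held 3780 to 11943 (7199 ± 2702, SD, n = 6). By library, MPNST 1 to 6 held 6745, 3780, 11943, 6041, 6737 and 7947 CPM. MPNST 3 was above every nerve and neurofibroma library, and the other 5 were below all of them. Scaled by trimmed mean of M values (TMM), which discounts a few very abundant genes, MPNST 2 reached 8667 and lay within the nerve range of 8354 to 10344, while MPNST 1, 4, 5 and 6 held 6157, 5374, 6154 and 7302. A lower level per library in bulk tissue can mean fewer cells of a type rich in these transcripts or less RNA per cell, and the 2 cannot be told apart.

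**Figure D1:**
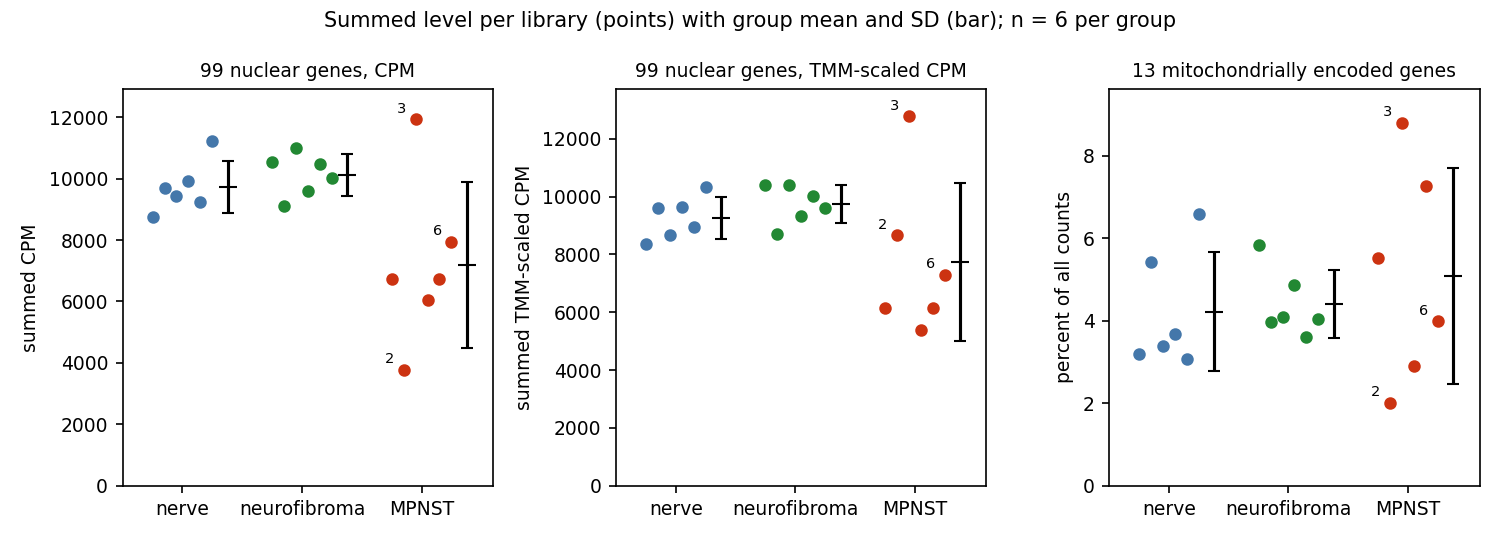
Summed level of the 99 nuclear members in CPM (left) and TMM-scaled CPM (middle), and the share of all counts from the 13 mitochondrially encoded subunit genes (right), with 1 point per library and the group mean and SD as a bar (n = 6). MPNST 2, 3 and 6 are numbered; in CPM, MPNST 3 sits at 11943 and the other 5 MPNST libraries sit below every nerve and neurofibroma library.

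The members also spread differently within groups. Over the 91 tested members, the median coefficient of variation of CPM was 45.3% in MPNST, against 9.26% in neurofibroma and 12.2% in nerve. Measured against each gene's nerve mean on the TMM-scaled log2 scale, the median member stood at -0.52, -0.20, 0.42, -0.86, -0.60 and -0.41 in MPNST 1 to 6. Of 91 members, 78, 60, 16, 87, 77 and 69 were below the nerve mean in those libraries. MPNST 4 thus had 4 members above the nerve mean and MPNST 3 had 75. Inside MPNST 3 the roles diverged, with medians of 0.71 for complex III, 0.68 for complex I core subunits, 0.13 for the ubiquitous complex IV subunits and -0.29 for the complex I assembly factors.

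In plexiform neurofibroma against normal nerve, both labelled as trigeminal nerve, few members were called. The edgeR quasi-likelihood test with Benjamini-Hochberg adjustment over all 16464 genes called 5 of 91 members higher, where 7.94% of all genes were called higher, and 1 lower, where 6% were. The median log2 change was 0.08 over members and -0.02 over all genes. Groups did not overlap in CPM for 2 members, both higher, against 3.95% of all genes higher and 2.13% lower without overlap. The called share of members was below the share of all genes called in either direction (13.9%).

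Among complex I genes, Ndufa7 and Ndufa13 rose. Ndufa7, an accessory subunit, had CPM of 37.6, 42.0 and 47.5 (lowest, median, highest) in nerve and 48.7, 51.8 and 54.9 in neurofibroma. Every neurofibroma library was above every nerve library, and the log2 change was 0.32 (SE 0.07, edgeR adjusted p = 0.0144). Ndufa13, an accessory subunit also known as GRIM-19, had 84.1, 87.5 and 123 CPM in nerve and 113, 121 and 132 in neurofibroma. Only nerve 6, at 123 CPM, reached into the neurofibroma range, and the log2 change was 0.36 (SE 0.10, edgeR adjusted p = 0.0286).

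In complex III the calls went both ways. Uqcrc1, a core protein of the complex, had 146, 154 and 197 CPM in nerve and 108, 124 and 151 in neurofibroma. It fell by 0.41 on the log2 scale (SE 0.11, edgeR adjusted p = 0.0253), with only neurofibroma 3 inside the nerve range. Uqcr11, a small accessory subunit, had 57.0, 64.1 and 72.5 CPM in nerve and 68.5, 75.8 and 86.0 in neurofibroma. Its ranges overlapped slightly and its log2 change was 0.27 (SE 0.08, edgeR adjusted p = 0.0437).

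In complex IV, Cox7a2l, which takes part in joining complexes III and IV into supercomplexes, had 137, 157 and 166 CPM in nerve and 174, 186 and 196 in neurofibroma, with no overlap. Its log2 change was 0.26 (SE 0.06, edgeR adjusted p = 0.0221). In ATP synthase, Atp5e, the epsilon subunit of the F1 stalk, had 47.8, 54.4 and 73.4 CPM in nerve and 66.1, 72.5 and 93.6 in neurofibroma. Nerve 6 was inside the neurofibroma range, and the log2 change was 0.40 (SE 0.11, edgeR adjusted p = 0.0352). Of 12 fits that each left out 1 library, the call of Uqcr11 was lost in 11, Atp5e in 10 and Ndufa13 in 8. That of Uqcrc1 was lost in 4 and that of Cox7a2l in 3. The call of Ndufa7 was lost in 0 of them, but was lost in 1 model over all 18 samples (edgeR adjusted p = 0.683). Without single libraries the number of members called ran from 1 to 17, with 17 reached without nerve 6, which had the highest summed level of its group.

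The other members were not called, among them all 7 complex I core subunits, all 8 assembly factors and all 4 complex II subunits (0 calls by edgeR, with 1, 1 and 0 at an unadjusted p below 0.05; DESeq2 called 1, 1 and 0, and voom 0, 1 and 0). Sdha, the flavoprotein of complex II, had 238, 267 and 329 CPM in nerve and 238, 273 and 308 in neurofibroma. Its difference was -0.03 on the log2 scale (SE 0.10, edgeR adjusted p = 0.879). Atp5b, the catalytic beta subunit of ATP synthase, had 755, 877 and 1181 against 893, 948 and 1081 CPM. Schwann cell markers moved in the same comparison, as 4 of 11 were higher, where 7.94% of all genes were. Pericyte and smooth muscle markers had 2 of 11 higher. Sympathoadrenal markers had 2 of 6 tested lower and neuron markers 1 of 15, where 6% of all genes were lower. The neuron marker share (6.67%) was thus near that of all genes. The part of these markers in the member values was not tested.

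In MPNST against neurofibroma with 6 libraries each, 11 of 91 members were called lower and 1 higher, with the lower calls in complex I, its assembly factors and complex IV. Of all 16537 genes, 16.8% were called lower and 25.3% higher. The median log2 change was -0.21 over members and 0.22 over all genes. CPM ranges were separate and lower in MPNST for 12 members, against 16.2% of all genes, and separate and higher for 0 members, against 2.24%. These counts rest on CPM before TMM scaling, in which MPNST 2 is low. After scaling, Atp5g2 was at 96.0 or more in MPNST and at most 65.1 in neurofibroma, without overlap. Cox4i1, separate and lower in CPM, then overlapped, at 224 in MPNST 3 and 222 in neurofibroma 6. The members' share of lower calls was thus near or below that of all genes, in a comparison where the MPNST libraries spread widely.

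Among complex I genes, Ndufa10, an accessory subunit related to deoxynucleoside kinases, had 119, 194 and 283 CPM in neurofibroma and 30.3, 51.8 and 81.2 in MPNST. All 6 MPNST libraries were below all neurofibroma libraries, and it fell by 1.54 on the log2 scale (SE 0.31, edgeR adjusted p = 0.00232). Ndufs5, another accessory subunit, had 42.8, 82.9 and 91.2 CPM in neurofibroma and 14.5, 32.2 and 60.7 in MPNST. It fell by 0.92 (SE 0.31, edgeR adjusted p = 0.0321), with MPNST 3 at 60.7 CPM above the low neurofibroma 4 at 42.8.

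The assembly factors, which help to build complex I and are not part of it, had 4 of 8 members lower. Ndufaf5, a methyltransferase that acts on a core subunit, had 23.7, 29.1 and 30.4 CPM in neurofibroma and 2.89, 7.67 and 15.4 in MPNST. It fell by 1.41 on the log2 scale (SE 0.28, edgeR adjusted p = 0.00222), and even MPNST 3 and MPNST 6, at 15.4 and 14.9 CPM, were below every neurofibroma library. Ndufaf1, Ndufaf2 and Ndufaf3 fell by 0.58 to 0.79. Ndufaf4 was not called, with 29.9, 31.5 and 34.7 CPM against 12.6, 24.3 and 45.5, where MPNST 3 held the 45.5. MPNST 2 held the 12.6, which was 28.9 after TMM scaling.

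In complex IV, 3 of 12 tested ubiquitous subunits fell. Ndufa4, once placed in complex I and now counted as a complex IV subunit, had 224, 282 and 324 CPM in neurofibroma and 61.1, 93.5 and 197 in MPNST, without overlap. It fell by 1.02 on the log2 scale (SE 0.29, edgeR adjusted p = 0.0157). Cox6a1, the ubiquitous form of subunit VIa, had 145, 151 and 168 CPM against 42.2, 68.1 and 93.5 and fell by 0.90 (SE 0.21, edgeR adjusted p = 0.00515). Cox7a2, the ubiquitous form of subunit VIIa, had 108, 128 and 149 CPM against 43.9, 63.3 and 87.4 and fell by 0.64 (SE 0.24, edgeR adjusted p = 0.0473). No MPNST library reached the neurofibroma range for any of the 3, MPNST 3 included. The calls of Cox7a2 and Ndufs5 were lost in 9 and 7 of 12 fits that each left out 1 library (highest edgeR adjusted p = 0.105 and 0.0684).

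Complexes II and III had 0 of 4 and 0 of 8 members called by edgeR with all 6 MPNST libraries, and 0 and 0 at an unadjusted p below 0.05; DESeq2 called 0 and 0, and voom 1 and 1 lower. Uqcrh, the hinge protein of complex III, had 147, 173 and 192 CPM in neurofibroma and 64.7, 128 and 171 in MPNST. Sdha had 238, 273 and 308 against 89.7, 224 and 286. MPNST 2 held the 64.7 and the 89.7, which were 148 and 206 after TMM scaling. The lowest MPNST values were then 76.4 for Uqcrh (MPNST 6) and 149 for Sdha (MPNST 5). The log2 differences of Uqcrh and Sdha were -0.23 (SE 0.23) and -0.14 (SE 0.20). A change of modest size in either direction was thus not detectable in these libraries.

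Without MPNST 2, 3 and 6 the picture was broad. In MPNST 1, 4 and 5 against the 6 neurofibroma libraries, 68 of 93 tested members were called lower, where 30.9% of all 17900 genes were, and 1 was called higher, where 32% of all genes were. The median log2 change was -0.71 over members and 0.05 over all genes. For 63 members every one of the 3 MPNST libraries was below every neurofibroma library, against 28.3% of all genes. Leaving out MPNST 3 alone gave 26 of 92 members lower and 1 higher, with a median of -0.40, so this library by itself moved the count by more than 1.5 times.

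The lower calls reached every role apart from the tissue-restricted isoforms. They comprised 5 of 7 complex I core subunits, 24 of 31 accessory subunits and 6 of 8 assembly factors, and 2 of 4 complex II and 7 of 8 complex III subunits. Also lower were 11 of 12 ubiquitous complex IV subunits, and 4 of 5 F1 genes and 9 of 12 stalk and Fo genes of ATP synthase. Ndufa10 averaged 48.6 ± 9.0 CPM (SD, n = 3) and fell by 2.09 on the log2 scale. Ndufaf5 averaged 7.45 ± 0.66 and fell by 1.99, and Ndufa4 averaged 88.7 ± 10.4 and fell by 1.74. Atp5b averaged 576 ± 159 CPM and fell by 0.83 (SE 0.18, edgeR adjusted p = 0.0032).

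**Figure D2:**
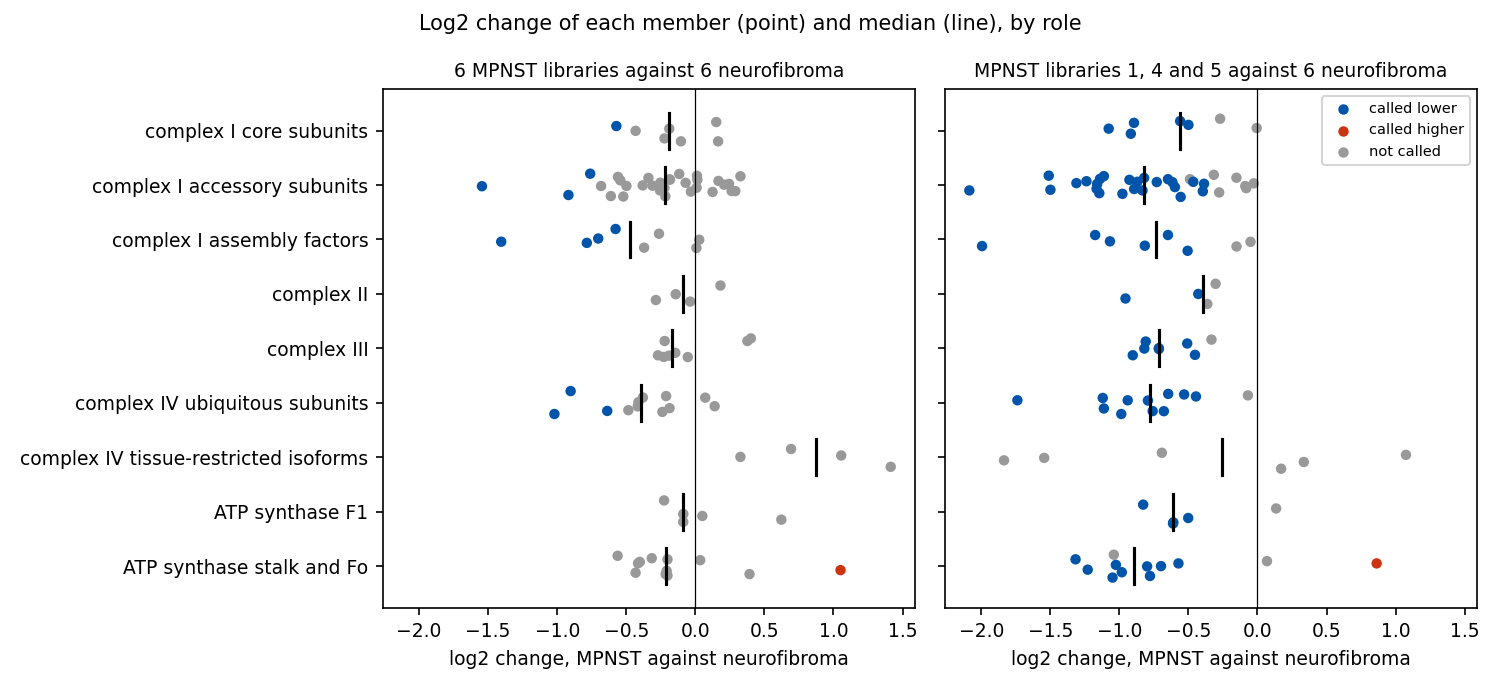
Log2 change of each tested member (point) and the median (black line) by role, for MPNST against neurofibroma, with all 6 MPNST libraries (left) and with MPNST 1, 4 and 5 (right); colours mark edgeR calls at an adjusted p below 0.05. The lower calls go from 11 of 91 members on the left to 68 of 93 on the right, and Atp5g2 is the 1 member called higher in both panels.

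Not all members followed. Between MPNST 1, 4 and 5 and neurofibroma, Cox7a2l differed by -0.07 on the log2 scale (SE 0.12) and Ndufa7 by -0.15 (SE 0.12), and neither was called by edgeR. Sdha differed by -0.36 (SE 0.16, edgeR adjusted p = 0.0784). Across the 3 libraries, neuron markers summed to 427, 1036 and 594 CPM against 14140 or more in neurofibroma, with 14 of 15 called lower and none at 0. Macrophage markers summed to 3477, 3071 and 4527 CPM against at most 427, with 10 of 10 called higher. The part of either in the members' fall was not tested.

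MPNST against normal nerve shares its MPNST libraries with the comparison above. With 6 libraries each, 8 of 91 members were called lower, where 18.4% of 16384 genes were, and 4 higher, where 27.6% were. The median was -0.15 over members and 0.22 over all genes. CPM ranges were separate and lower for 11 members, against 15.6% of all genes, and separate and higher for 0, against 2.87%. These counts too rest on CPM before TMM scaling. After scaling, Atp5g2 was at most 63.0 in nerve, below all MPNST libraries. Cox4i1, separate and lower in CPM, then overlapped, at 224 in MPNST 3 and 220 in nerve 1. In MPNST 1, 4 and 5 the counts were 59 of 93 lower and 2 higher (30.9% and 31.5% of all genes), with a median of -0.61 against 0.03, and 51 members were separate and lower (27.5% of all genes). Without MPNST 3 alone, 31 of 91 were lower and 3 higher.

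The lower calls against nerve were Ndufaf5, Ndufa10, Ndufs5, Ndufa4, Cox6a1, Ndufaf1, Ndufaf2 and Ndufaf3. Ndufaf5 had 23.0, 31.3 and 40.5 CPM in nerve and 2.89, 7.67 and 15.4 in MPNST, a fall of 1.57 on the log2 scale (SE 0.30, edgeR adjusted p = 0.00141). Ndufa10 had 134, 153 and 244 CPM in nerve and fell by 1.37 (SE 0.27, edgeR adjusted p = 0.00185). Ndufs5 and Ndufa4, at 75.4 and 225 CPM or more in every nerve library, fell by 1.09 and 0.97. Cox6a1 fell by 0.96 from 146, 159 and 170 CPM in nerve. None of these 5 overlapped between the groups.

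The higher calls against nerve were Ndufa4l2, Atp5g2, Atp5e and Ndufa7. Atp5e had 47.8, 54.4 and 73.4 CPM in nerve and 44.2, 99.9 and 163 in MPNST, where MPNST 2 and 4 held 44.2 and 52.4 and the other 4 held 98.1 or more. After TMM scaling MPNST 2 was at 101 and MPNST 4 at 46.6. Its log2 change was 1.01 (SE 0.28, edgeR adjusted p = 0.0115), and in MPNST 1, 4 and 5 it was 0.52 and was not called (adjusted p = 0.0702). Ndufa7 had 37.6, 42.0 and 47.5 CPM in nerve and 22.3, 52.8 and 84.6 in MPNST, a log2 change of 0.64 (SE 0.22, edgeR adjusted p = 0.0354). It was 0.15 and not called in MPNST 1, 4 and 5 (adjusted p = 0.374). The Ndufa7 call with 6 libraries was lost in 8 of 12 fits that each left out 1 library (highest edgeR adjusted p = 0.0835). MPNST 2 held the 22.3 CPM of Ndufa7, which was 51.2 after TMM scaling, and MPNST 4 was then lowest at 36.7.

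Atp5g2 was higher in MPNST in both comparisons. It is 1 of 3 nuclear genes, with Atp5g1 and Atp5g3, whose products differ in their import sequence and give the same mature c subunit, the protein that forms the rotating ring of ATP synthase. Atp5g2 had 49.9, 51.2 and 68.4 CPM in nerve, 62.0, 65.4 and 67.9 in neurofibroma and 52.2, 116 and 148 in MPNST. MPNST 2 held the 52.2 CPM, which is 120 CPM after TMM scaling, and the other 5 held 104 or more, above all nerve and neurofibroma libraries. The log2 change was 1.05 (SE 0.17, edgeR adjusted p = 0.000732) against neurofibroma and 1.31 (SE 0.19, edgeR adjusted p = 0.00026) against nerve. Both calls were kept on leaving out any 1 library (highest adjusted p = 0.00298 and 0.00133), and in MPNST 1, 4 and 5 the changes were 0.86 and 1.11 (adjusted p = 6.07e-05 and 9.02e-05). The difference between neurofibroma and nerve was 0.26 (SE 0.08, edgeR adjusted p = 0.0509) and was not called.

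The other 2 c subunit genes, looked at after their values were seen, were not called higher. Atp5g1 had 99.3, 121 and 130 CPM in nerve, 105, 114 and 133 in neurofibroma and 45.7, 54.8 and 159 in MPNST, where MPNST 3 held 159 and the other 5 held 86.7 or less. Atp5g3 had 163, 179 and 200 CPM in nerve, 133, 165 and 182 in neurofibroma and 94.2, 121 and 167 in MPNST. Neither was called with 6 MPNST libraries, while in MPNST 1, 4 and 5 against neurofibroma Atp5g1 fell by 1.23 and Atp5g3 by 0.57 (edgeR adjusted p = 3.48e-05 and 0.00932). Of the counts of the 3 genes together, not adjusted for length, Atp5g2 made up 36.0 ± 8.7% in MPNST, against 19.2 ± 1.39% in neurofibroma and 15.4 ± 1.68% in nerve (SD, n = 6). Its share ran from 26.1 to 49.5%, 17.2 to 20.7% and 13.8 to 18.1% in these groups, so the MPNST libraries were separate from both other groups, MPNST 2, 3 and 6 included.

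**Figure D3:**
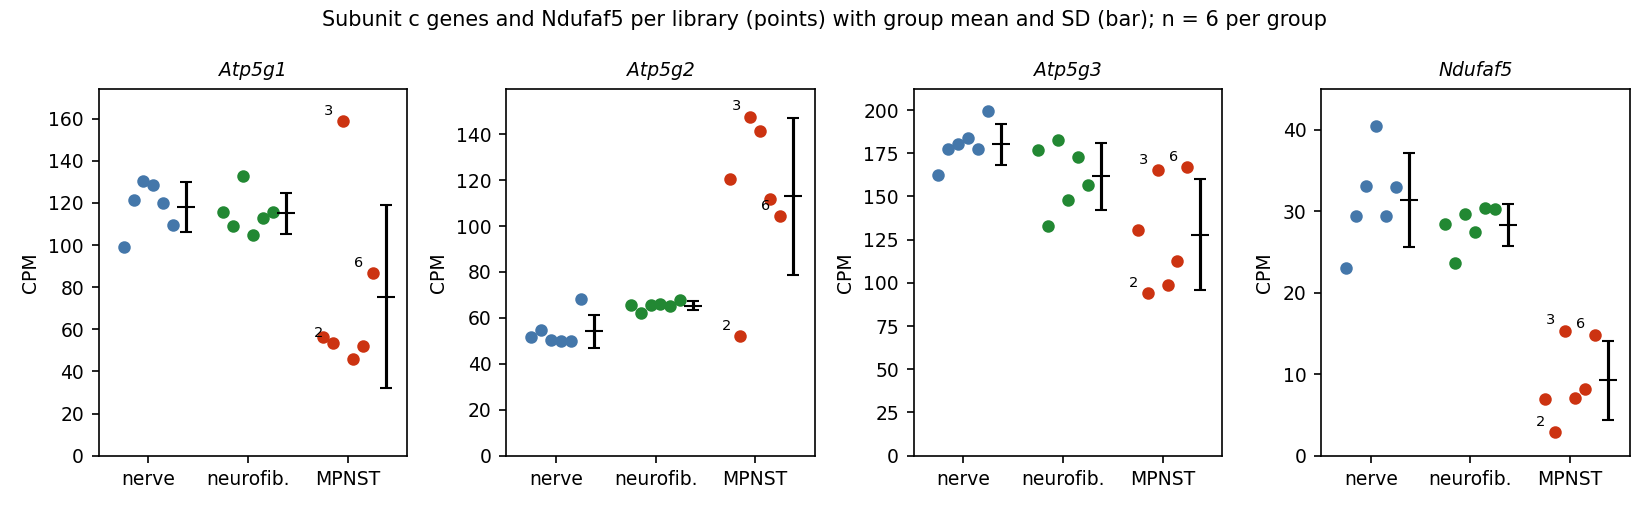
CPM of the 3 genes for the ATP synthase c subunit and of the complex I assembly factor gene Ndufaf5, with 1 point per library and the group mean and SD as a bar (n = 6); MPNST 2, 3 and 6 are numbered. Atp5g2 is at 104 CPM or more in 5 of 6 MPNST libraries, Atp5g1 is at 159 in MPNST 3 and at 86.7 or less in the rest, and Ndufaf5 is below both other groups in all 6.

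The promoters of the 3 c subunit genes are shown because their transcripts moved apart. The 200 bases before each RefSeq start (GRCm38.p6, all on the minus strand) lie at chr11:96075632-96075831, chr15:102671048-102671247 and chr2:73911327-73911526. Capitals mark a match to the motif of the factor NRF1 (GCGC, any base, then TGCGC) in Atp5g2, 42 to 33 bases before the start, and to that of the ERR receptors (AAGGTCA, here on the opposite strand) in Atp5g3, 52 to 46 bases before it.
Atp5g1: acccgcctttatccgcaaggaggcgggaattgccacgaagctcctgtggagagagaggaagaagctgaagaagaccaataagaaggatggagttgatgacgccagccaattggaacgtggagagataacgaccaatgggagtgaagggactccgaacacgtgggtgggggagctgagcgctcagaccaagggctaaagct
Atp5g2: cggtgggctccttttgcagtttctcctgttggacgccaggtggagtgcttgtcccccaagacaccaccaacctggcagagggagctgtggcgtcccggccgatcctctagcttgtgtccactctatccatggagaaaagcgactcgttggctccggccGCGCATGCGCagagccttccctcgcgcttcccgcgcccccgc
Atp5g3: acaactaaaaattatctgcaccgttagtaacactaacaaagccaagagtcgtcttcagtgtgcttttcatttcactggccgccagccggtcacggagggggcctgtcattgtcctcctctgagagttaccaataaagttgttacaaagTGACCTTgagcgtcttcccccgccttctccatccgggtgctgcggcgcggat
The Atp5g1 sequence held none of the 4 motifs searched, which says only that those letters are not in this window.

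RefSeq gave a promoter for 77 of the 99 members and for 27025 genes in all. In the 250 bases before the start, on both strands, the NRF1 motif was found in 14 member promoters (18.2%, against 4.23% of all promoters). CCGGAAG, the core bound by ETS factors such as GABP, was found in 14 (18.2%, against 7.83%). The ERR motif AAGGTCA was in 5 (6.49%, against 4.7%) and the E-box CAGCTG, a form bound by myogenic factors, in 6 (7.79%, against 14.7%). No member promoter held overlapping matches of these motifs (0 promoters). These are matches of letters and not measured sites.

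Tissue-restricted isoforms of complex IV were at low levels in most libraries and high in a few. Cox6a2, the heart and skeletal muscle form of subunit VIa, had 398 CPM in MPNST 3, 32.5 in neurofibroma 1 and 6.11 in nerve 3, and 3.47 or less in the other 15 libraries. Cox8b, the muscle form of subunit VIII, had 98.8, 14.6 and 2.29 CPM in the same 3 libraries and 3.28 or less elsewhere. Cox7a1, the muscle form of subunit VIIa, had 27.8 CPM in MPNST 3 and 8.37 in neurofibroma 1, and 2.42 or less in the others. These were the 3 libraries with the highest skeletal muscle marker sums (59440, 2189 and 543 CPM). Adipocyte markers summed to 582, 746 and 32.6 CPM in them, and to 1435 and 811 in MPNST 1 and 5. In MPNST 1 and 5, Cox8b was at 2.99 and 1.65 TMM-scaled CPM, with muscle sums of 28.6 and 22.9 CPM. The part of either tissue in the isoform levels was not tested. Cox6a2 and Cox8b did not pass the count filter, and Cox7a1 was not called in any comparison (log2 difference 1.41, SE 1.13, MPNST against neurofibroma; -1.54 in MPNST 1, 4 and 5).

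Of their ubiquitous partners, Cox6a1 and Cox8a were low in MPNST 3 and Cox7a2 was at its highest MPNST level in CPM. There Cox6a1 was at 45.1 CPM and Cox8a, the ubiquitous form of subunit VIII, at 66.6, against 145 and 163 or more in every neurofibroma library, although the summed level of the members was the highest of all. MPNST 2 was lower still for both in CPM, at 42.2 and 61.4. After TMM scaling the order was reversed. Cox6a1 was then at 96.7 in MPNST 2 and 48.3 in MPNST 3, and Cox8a at 141 and 71.3. Cox7a2 was at 87.4 CPM in MPNST 3, the highest of the MPNST libraries in CPM and below every neurofibroma library. After TMM scaling MPNST 2 was higher, at 101 against 93.6 in MPNST 3. Both were below the 103 or more of neurofibroma. Cox8a had 163, 175 and 187 CPM in neurofibroma and 61.4, 102 and 169 in MPNST. It was not called with 6 MPNST libraries (log2 difference -0.49, SE 0.21, edgeR adjusted p = 0.0801) and fell by 0.76 in MPNST 1, 4 and 5. The promoters of this isoform pair are shown because the 2 genes were opposite in MPNST 3. The 200 bases before the start (GRCm38.p6, minus strand) lie at chr19:7217617-7217816 and chr7:140900447-140900646, and capitals mark the E-box CAGCTG of Cox8b, 19 to 14 bases before the start.
Cox8a: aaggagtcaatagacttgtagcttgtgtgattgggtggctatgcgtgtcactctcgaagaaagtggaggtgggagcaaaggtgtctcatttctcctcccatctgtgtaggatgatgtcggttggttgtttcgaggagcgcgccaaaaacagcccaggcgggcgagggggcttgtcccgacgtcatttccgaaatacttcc
Cox8b: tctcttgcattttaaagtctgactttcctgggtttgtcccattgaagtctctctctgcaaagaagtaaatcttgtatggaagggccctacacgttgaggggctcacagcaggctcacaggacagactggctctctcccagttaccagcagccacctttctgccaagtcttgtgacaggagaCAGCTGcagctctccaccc
RefSeq promoters were not used for Cox6a2, Cox4i1, Cox4i2 and Ndufa4l2.

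**Figure D4:**
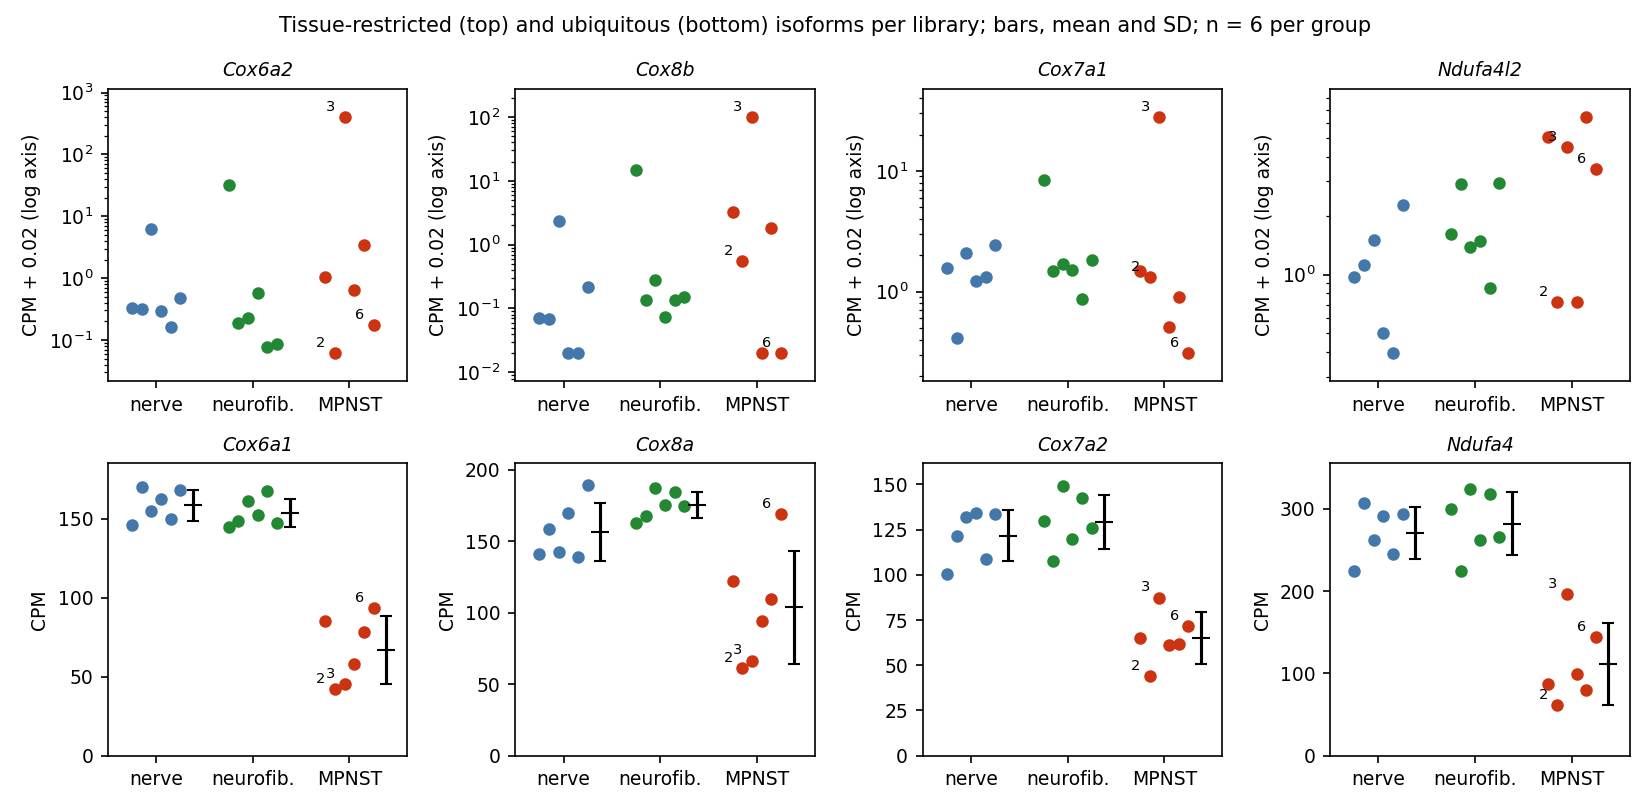
CPM of tissue-restricted isoforms (top row, log axis, 0.02 added so that 0 can be drawn) and of their ubiquitous partners (bottom row, linear axis with group mean and SD, n = 6), with 1 point per library; MPNST 2, 3 and 6 are numbered. MPNST 3 is the highest library for Cox6a2 (398 CPM), Cox8b (98.8) and Cox7a1 (27.8), while Cox6a1 (45.1) and Cox8a (66.6) are low there.

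The 4 pairs with a tested restricted form were compared as ratios. Each restricted form was set against its partner as a log2 ratio and compared by an exact two-sided permutation test over libraries. The 0.5 CPM added to each gene weighs on forms near 1 CPM, so these ratios depend on it and on library scaling. Of 12 ratios tested, 4 in each comparison, 2 were called after Benjamini-Hochberg adjustment, and both were Ndufa4l2 to Ndufa4. Ndufa4l2 is a form known to be induced in low oxygen. It had 0.376, 1.03 and 2.24 CPM in nerve, 0.834, 1.53 and 2.92 in neurofibroma and 0.699, 3.97 and 6.38 in MPNST, where MPNST 2 and 4 were at 0.701 and 0.699. After TMM scaling they were at 1.61 and 0.622.

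The log2 ratio of Ndufa4l2 to Ndufa4 was -5.01 ± 1.07 in MPNST, against -6.98 ± 0.70 in neurofibroma and -7.50 ± 0.59 in nerve (SD, n = 6). It was 1.97 higher in MPNST than in neurofibroma (exact permutation p = 0.00649, adjusted 0.039) and 2.49 higher than in nerve (exact permutation p = 0.00217, the smallest possible, adjusted 0.026). Every MPNST library was above every nerve library, while MPNST 4, at -6.39, was inside the neurofibroma range. The call against neurofibroma was lost on leaving out any of 9 single libraries (highest adjusted p = 0.0649). With MPNST 1, 4 and 5 alone the differences were 2.35 and 2.87, neither was called (exact permutation adjusted p = 0.143 for both), and the smallest possible unadjusted p was 0.0119.

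As a single gene, Ndufa4l2 rose against nerve (log2 change 1.80, SE 0.56, edgeR adjusted p = 0.0211, and 0.0525 without MPNST 5) and was not called against neurofibroma (1.06, SE 0.50, adjusted p = 0.109). Cox4i2, a form of subunit IV found in lung and oxygen-sensing cells, stayed at 0.125 to 3.39 CPM in all 18 libraries. Cox6b2, the testis form of subunit VIb, had 0.801, 1.57 and 5.53 CPM in nerve, 1.80, 2.19 and 3.47 in neurofibroma and 0.324, 2.59 and 5.11 in MPNST. Their ratios to Cox4i1 and Cox6b1 were 0.77 and 0.76 higher in MPNST than in neurofibroma and were not called (exact permutation adjusted p = 0.0714 and 0.0831). Cox7b2, another form restricted to testis, had 0.393 CPM or less in every nerve and neurofibroma library and was listed at 0 in all 6 MPNST libraries.

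None of the 13 subunit genes encoded by mitochondrial DNA was called lower by edgeR in any comparison. Together they took 2.01 to 8.80% of counts in MPNST, with MPNST 2 lowest and MPNST 3 highest, against 3.61 to 5.85% in neurofibroma and 3.06 to 6.58% in nerve. These shares are of all counts before TMM scaling. In MPNST 2 the 10 most abundant genes held 54.45% of counts and the TMM factor was 0.436, so its low place rests on unscaled totals. edgeR called 0 of 13 in neurofibroma against nerve (0 at an unadjusted p below 0.05) and 0 of 13 in MPNST against neurofibroma (1 at an unadjusted p below 0.05), where DESeq2 called 0 and 1 higher and voom 1 and 1 higher. In MPNST against nerve mt-Nd3, a complex I core subunit, was higher (log2 change 1.86, SE 0.69, edgeR adjusted p = 0.0432), and voom called 8 of 13 higher. In MPNST 1, 4 and 5 against nerve mt-Nd3 was not called (adjusted p = 0.136) and mt-Nd6, also a complex I core subunit, was higher (log2 change 0.69, edgeR adjusted p = 0.0483). In MPNST 1, 4 and 5 against neurofibroma, where 68 of 93 nuclear members were lower, edgeR called 0 of 13 (1 at an unadjusted p below 0.05; DESeq2 called 1 lower and voom 1 higher) and their median log2 difference was 0.16. The difference between the 2 sets was not tested.

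Other genes of mitochondrial metabolism were read from the same fits. Of 18 genes of the tricarboxylic acid cycle and its entry, 2 were lower and 0 higher in neurofibroma against nerve (6% and 7.94% of all genes). In MPNST against neurofibroma 3 were lower and 1 higher (16.8% and 25.3% of all genes). In MPNST 1, 4 and 5, 14 were lower and 1 higher (30.9% and 32% of all genes). Mdh1, the cytosolic malate dehydrogenase, had 400, 543 and 593 CPM in neurofibroma and 82.4, 102 and 229 in MPNST, and fell by 1.56 on the log2 scale (SE 0.37, edgeR adjusted p = 0.0063), and in MPNST 1, 4 and 5 it fell to 0.165 of the neurofibroma level. Dlat, the E2 subunit of pyruvate dehydrogenase, fell by 0.56 in neurofibroma against nerve and by 1.11 in MPNST against nerve.

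A list of 36 held electron carriers and assembly factors of complexes II to V and of complex I outside the Nduf names. Of these, 4 were lower and 0 higher in MPNST against neurofibroma (16.8% and 25.3% of all genes). In MPNST 1, 4 and 5, 18 were lower and 0 higher (30.9% and 32% of all genes). Surf1, a complex IV assembly factor, had 46.3, 53.7 and 56.7 CPM in neurofibroma and 11.6, 27.4 and 29.6 in MPNST, and fell by 0.87 (SE 0.13, edgeR adjusted p = 0.000515). Uqcc1, a complex III assembly factor, fell by 1.47 (SE 0.41, adjusted p = 0.0136), and by 2.36 in MPNST 1, 4 and 5. In neurofibroma against nerve the list had 1 lower, Ttc19, and 1 higher, Uqcc2, which both act on complex III (6% and 7.94% of all genes).

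Of 22 glycolysis genes, 7 were lower and 2 higher in MPNST against neurofibroma (16.8% and 25.3% of all genes), and 12 lower and 2 higher in MPNST 1, 4 and 5 (30.9% and 32% of all genes). With all 6 libraries, voom called 18 lower. Ldhb, the lactate dehydrogenase B chain, had 479, 508 and 551 CPM in neurofibroma and 8.11, 42.6 and 59.0 in MPNST and fell by 3.62 (SE 0.27, edgeR adjusted p = 3.19e-06). Aldoc, an aldolase of brain and nerve, fell by 4.73. In neurofibroma against nerve, Hk2, a hexokinase inducible in many tissues, rose 2.29-fold (edgeR adjusted p = 0.0352) and Eno2, the neuronal enolase, fell by 0.50.

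Regulators of mitochondrial gene expression went both ways. Of 15, 4 were lower and 0 higher in neurofibroma against nerve (6% and 7.94% of all genes). Among the lower were Esrrg, an orphan nuclear receptor, which fell by 0.79, and the coactivator gene Ppargc1a, which fell by 0.44. In MPNST against neurofibroma 5 were higher and 0 lower by edgeR (25.3% and 16.8% of all genes), with 5 at an unadjusted p below 0.05. DESeq2 called 1 lower and voom 4. In MPNST 1, 4 and 5, 5 were higher and 4 lower (32% and 30.9% of all genes). Nrf1, the factor whose motif was searched above, had 12.9, 14.2 and 16.2 CPM in neurofibroma and 8.34, 31.9 and 37.5 in MPNST, and rose by 1.05 (SE 0.16, edgeR adjusted p = 0.00055). Gabpb1, a subunit of the ETS factor GABP, rose by 1.23 (SE 0.22, adjusted p = 0.00126). Of 20 import, carrier and membrane genes 3 were lower and 2 higher in MPNST against neurofibroma, and 9 lower and 1 higher in MPNST 1, 4 and 5, beside the same shares of all genes. The list included Phb2, a prohibitin of the inner membrane, higher by 1.27 (SE 0.20, edgeR adjusted p = 0.000593) and Tomm70a, an import receptor, lower with a log2 change of -1.10 (SE 0.27, adjusted p = 0.00738).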

How the data were processed

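Libraries were 18 samples of mouse poly(A) RNA, 6 per group, grouped by the labels, with columns of the table assigned through sample titles. Replicate numbers follow accession order and are names only. The deposited values are estimated counts per gene; the submitters' processing notes list GRCm39 as build and, among tools, Salmon 1.4.0, DESeq2 and FastQC, while annotation release and settings are not stated in the labels. Salmon shares reads between near-identical transcripts, so genes with close copies are uncertain. In the deposited estimated counts 0% of nonzero values were whole, and a lone read was worth 0.928 to 1.004, so values may have been rescaled per library in a way that is not stated.

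Counts were rounded to whole numbers and fitted in R 4.3.3 by the two-sided quasi-likelihood test of edgeR 4.0.16 after filterByExpr and TMM scaling, each comparison on its own 2 groups, with Benjamini-Hochberg adjustment over all genes and calls at an adjusted p below 0.05. CPM divides a count by its library's total and was not scaled further unless TMM is named, so CPM ratios can differ from fitted log2 changes. CPM compares a gene between libraries, not genes with each other. The fit was tested on simulated data. Alternatives were RLE, upper-quartile and library-total scaling, 2 other count filters, DESeq2 1.42.0, limma 3.58.1 voom with quality weights, a threshold of 0.01, 1 model over all 18 samples, no mitochondrial genes, other pseudocounts, and fits without single libraries or marked ones. Fits with or within the 2 runs in which the table's columns are ordered were chosen after seeing the data.

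Named members were the 5 largest rises and falls called per comparison, each isoform pair, the most abundant member of each role and the leading member in a role's minority direction; of the other lists, the 2 genes with the smallest p. The members, lists and libraries left out were chosen with earlier results of these data known. Promoters came from RefSeq (GRCm38.p6), another build than the submitters', and no other coordinates are used.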

Additional observations from a re-analysis of the deposited data

Results flagged for a closer look

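A library was set apart here when its gap to the nearest other library of its group, divided by the group's range, exceeded Dixon's 95% critical value. Of 90 sets (30 named members in 3 groups of 6) 17 met this, where chance alone gives about 1 in 20. MPNST 3 was high for 5 members, at 288 CPM of Atp5pb (a stator subunit gene of ATP synthase, next library 156), 398 of Cox6a2 (next 3.47), 27.8 of Cox7a1 (next 1.46), 230 of Cox7b (next 101) and 98.8 of Cox8b (next 3.28). Neurofibroma 1 was high for the same 3 muscle isoforms, at 32.5 CPM of Cox6a2, 8.37 of Cox7a1 and 14.6 of Cox8b, and nerve 3 for Cox6a2 (6.11 CPM) and Cox8b (2.29). Nerve 6 was high for 4 members, at 68.4 CPM of Atp5g2, 318 of Cox4i1, 5.53 of Cox6b2 and 123 of Ndufa13. Neurofibroma 3 was high for Atp5e (93.6 CPM, next 74.9). Low libraries were neurofibroma 2 for Cox7b (113 CPM, next 144) and neurofibroma 4 for Ndufs5 (42.8 CPM, next 73.9).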

How the results depend on the processing

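No paired analysis was run, because the groups were of different genotypes and the labels give no pairing. In neurofibroma against nerve, 6 members were called. The count was 3 with no filter, 11 with DESeq2, 17 with voom, 0 in the fit of all 18 samples (2 at an unadjusted p below 0.05), 0 at an adjusted p below 0.01, 12 without nerve 6 and neurofibroma 1, and 0 within the first and 0 within the second run of columns (16 and 4 at an unadjusted p below 0.05, edgeR). It ran from 1 to 17 without single libraries, and left 1.5 times its value without nerve 2 to 6 or neurofibroma 1, 2, 4 or 6. In MPNST against neurofibroma, 12 were called. The count was 19 with library totals, 37 with voom, 23 in the fit of all 18, 4 at 0.01, 69 without MPNST 2, 3 and 6, 5 within the first run and 0 within the second (8 unadjusted); without single libraries it ran from 7 (neurofibroma 3 or 5, or MPNST 1) to 27 (MPNST 3). In MPNST against nerve, 12 were called. The count was 38 with voom, 26 in the fit of all 18, 5 at 0.01, 61 without MPNST 2, 3 and 6, 7 within the first run and 0 within the second (7 unadjusted); without single libraries it ran from 10 to 34 (MPNST 3). Smaller runs hold fewer libraries. The cause of the other shifts was not tested. Library totals moved the median of all genes from 0.22 to 0.06 (MPNST against neurofibroma) and from 0.22 to 0.04 (against nerve). Ndufaf4, at 0.01 and 0.11 and not called, became -0.51 and -0.40 and called without MPNST 2, 3 and 6. Ratios called were 1 against neurofibroma (0 with 0.1 CPM added, 3 with 1 CPM, 0 without MPNST 2, 3 and 6, 0 to 2 without single libraries) and 1 against nerve (3 with 1 CPM, 0 without MPNST 2, 3 and 6, 1 to 2 without single libraries). Calls of genes at 1 CPM or less rest on few counts.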
